A study of Mus musculus with 12 samples.

Results

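The cell cycle and DNA replication genes described here are 36 mouse genes taken from a given list: cyclins, cyclin-dependent kinases (CDKs) and an inhibitor of G1, the origin licensing and replication fork genes, enzymes of deoxynucleotide supply, transcription factors of the cell cycle, and genes of mitosis. Ensembl identifiers of the deposited count table were matched to mouse symbols, and 36 of 36 genes had a row among the 28030 listed genes. 33 of them passed the filter on low counts, as did 12086 genes in all. The list was not chosen by a threshold on these measurements.

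Total RNA was sequenced from hepatocytes of wild-type female mice aged 12 weeks, kept on normal chow. Zone and feeding state gave 4 groups of 3 libraries each. Pericentral hepatocytes (PC) surround the central vein of a lobule, and periportal hepatocytes (PP) surround its portal tracts, and the titles name digitonin, a detergent used to remove the hepatocytes of one zone before those of the other are collected. All mice had been trained for 3 days to eat in an 8 h daytime window after 16 h without food, and on the last day received chow with 20% sucrose in the drinking water. The fed group had eaten for 4 h when killed at 13:00, and the fasted group had been without food and sucrose for 24 h at the same hour. The 3 libraries of each group are titled as biological replicates, but no label ties PC and PP libraries to the same mouse, and the p-values therefore measure only how these libraries spread. Libraries are named by group and replicate number, so that fasted PC1 is replicate 1 of the fasted PC group.

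In G1, D-type cyclins with CDK4 and CDK6, then E-type cyclins with CDK2, phosphorylate the retinoblastoma family and release E2F transcription factors, which switch on genes for DNA synthesis. CDC6 and CDT1 load the MCM2 to MCM7 helicase onto origins, CDC45 joins it when forks start, and cyclin A, cyclin B and CDK1, Aurora and Polo-like kinases then drive mitosis. Adult hepatocytes are mostly quiescent, many are polyploid, and they re-enter the cycle after partial hepatectomy. Bulk RNA cannot tell fewer cells of a type in a sample from less RNA per cell.

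Library totals ran from 16245846 to 27449412 estimated counts, so 1 count was worth 0.0348 to 0.0602 CPM (counts relative to the library size, scaled by trimmed means of M values) and the floor of 3 counts was 0.104 to 0.181 CPM. Summed markers of pericentral hepatocytes were 13609 to 24193 CPM in PC and 372 to 1988 CPM in PP libraries, and Alb was 64766 CPM or more in all 12. Fasted PC1 stood apart from the other 5 PC libraries: it had Glul at 172 CPM against 1372 to 3639, Oat at 452 against 1617 to 2309, and the periportal gene Hal at 579 against 66.7 to 113. The other pericentral markers read were below those 5 libraries too, except Cyp2e1 (11794 CPM against 8911 to 15402) and Lgr5 (9.32 against 7.37 to 24.1). The other periportal markers were above them, except Pck1 (4382 CPM against 45.1 to 4672) and Cdh1 (5.46 against 5.96 to 9.91). Calls that rest on fasted PC libraries are therefore also given without fasted PC1, except for genes named after their values were seen. Summed endothelial markers were highest in fasted PP2, at 37.4 CPM against 6.84 to 19.7 CPM elsewhere. Erythroid markers summed to 446 CPM in fasted PC2 and 152 CPM in fasted PP3, against at most 50.5 CPM elsewhere.

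Transcripts of the cell cycle genes were scarce in all 4 groups. The median of the mean levels was 2.39 CPM over the 33 tested members, against 13.2 CPM over all tested genes. 9 of 36 members averaged under 1 CPM. Of the 33 tested members 6 did, against 12.6% of all tested genes. Near the detection limit were the origin licensing factor Cdc6 and the spindle and checkpoint kinases Aurkb and Bub1, which failed the filter, and Mcm5, Foxm1, Ccnb1, Ccnb2, Cdk1 and Plk1, which passed it. Cdc6 rested on 3 counts or fewer in 5 libraries, Bub1 in 4 and Aurkb in 1. No member was at 0 in any library. The limit was set on the mean of all 12 libraries, and some called members above it had group means under 1 CPM. Ccne1 had 0.335 CPM in fed PC, on 13, 10 and 4 counts. Cdt1 had 0.841 CPM in fed PC and 0.998 CPM in fed PP, and Cdc45 had 0.711 CPM in fed PP. At 0.5 CPM as the limit in place of 1, 3 of the 9 remained, and these were the 3 that failed the filter.

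Per kb of merged exon, which allows levels to be compared between genes, Pcna, the sliding clamp of DNA polymerase, had the highest mean level of the 36, at 17.3 CPM per kb. Cdk4 followed at 7.86 CPM per kb and Ccnd1, which encodes cyclin D1, at 7.84, a mean of 11.1 and 16 CPM per kb in fed PC and PP and 2.07 and 2.12 in fasted PC and PP libraries. Cdkn1b, which encodes the CDK inhibitor p27, stood at 4.81, and Rrm2, the small subunit of ribonucleotide reductase, at 3.76 CPM per kb. Among the 12 mitosis genes the spindle kinase Aurka was highest at 0.88 CPM per kb, and Bub1 was lowest at 0.0601. Cdc6 was the lowest member, at 0.0468 CPM per kb. The upper end of the range was made up of Pcna, G1 genes and Rrm2, and mitosis genes lay in the lower part.

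**Figure D1:**
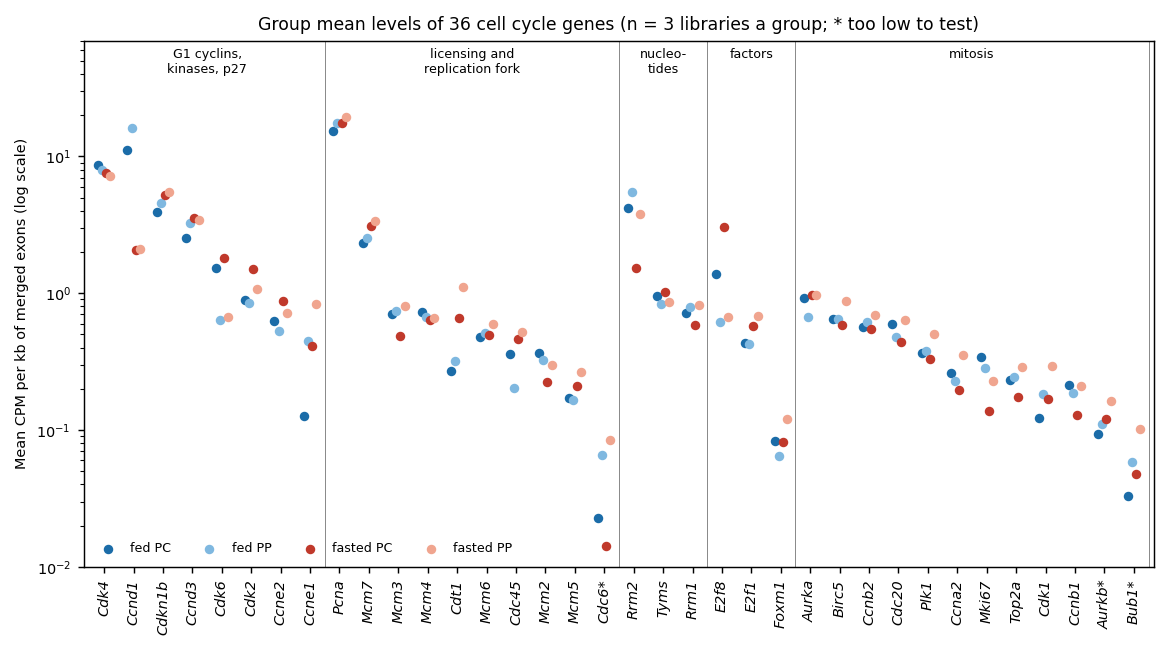
Mean level of each member in each group in CPM per kb of merged exon, on a log axis, with members ordered by role. Pcna is highest in each of the 4 groups, and Ccnd1 is lower in both fasted groups than in both fed groups.

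Promoter windows from RefSeq (GRCm38.p6), 250 bases before to 50 after each start, were found for 30 of 36 members, as 32 windows. No window was given for Ccnd1, Ccne2, Mcm4, Foxm1, Ccna2 and Aurkb. Exact letters were searched on both strands for an E2F motif (TTTCCCGC, TTTCGCGC, TTTGCCGC or TTTGGCGC), the cell cycle genes homology region CHR (TTTGAA) and the CCAAT box (CCAAT). The E2F letters were in 8 of 32 member windows (25%) and in 2.26% of all 32851 windows. CHR letters were in 31.2% and CCAAT in 71.9% of member windows, against 17.9% and 37.4% of all windows. The roles differed: of 10 licensing and fork windows 60% held E2F and 20% CHR letters, and of 10 mitosis windows 10% held E2F and 70% CHR letters. None of the 7 G1 windows held CHR. A match describes letters in a window and is no measure of binding, and the search cannot tell a bound site from a chance match.

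6 windows are printed 5′ to 3′ on the strand of the gene, with matches to any of the 3 motifs on either strand in capitals. Mcm6 (chr1:128359656-128359955, minus strand) and Cdt1 (chr8:122567765-122568064, plus strand) show E2F letters in licensing genes. Cdk1 (chr10:69352863-69353162, minus strand), the only mitosis window with E2F letters, and Mki67 (chr7:135716330-135716629, minus strand) show paired CHR and CCAAT letters. E2f8 (chr7:48881547-48881846, minus strand) and Rrm2 (chr12:24708004-24708303, plus strand) are members that were called between zones. In Mcm6 the run of 12 capitals is a forward and a reverse E2F match that overlap. The E2F match of Cdt1 lies after the transcription start, at position 32.
Mcm6: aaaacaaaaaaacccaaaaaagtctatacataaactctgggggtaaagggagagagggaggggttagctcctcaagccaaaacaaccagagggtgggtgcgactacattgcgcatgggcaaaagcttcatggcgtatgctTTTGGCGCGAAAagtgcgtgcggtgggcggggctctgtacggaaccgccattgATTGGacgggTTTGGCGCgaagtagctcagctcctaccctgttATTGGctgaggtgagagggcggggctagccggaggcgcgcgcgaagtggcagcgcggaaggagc
Cdt1: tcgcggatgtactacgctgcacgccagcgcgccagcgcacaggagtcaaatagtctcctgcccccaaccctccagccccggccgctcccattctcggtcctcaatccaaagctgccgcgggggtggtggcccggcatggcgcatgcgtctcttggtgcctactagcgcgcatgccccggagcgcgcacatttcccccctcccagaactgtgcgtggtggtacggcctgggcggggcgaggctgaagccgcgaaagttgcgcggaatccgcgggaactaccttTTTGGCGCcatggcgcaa
Cdk1: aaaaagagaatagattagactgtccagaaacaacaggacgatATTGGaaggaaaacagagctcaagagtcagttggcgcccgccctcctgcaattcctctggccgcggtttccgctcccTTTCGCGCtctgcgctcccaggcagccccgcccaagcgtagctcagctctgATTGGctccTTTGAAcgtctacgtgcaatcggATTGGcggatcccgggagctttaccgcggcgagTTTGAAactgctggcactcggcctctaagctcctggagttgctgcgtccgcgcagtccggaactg
Mki67: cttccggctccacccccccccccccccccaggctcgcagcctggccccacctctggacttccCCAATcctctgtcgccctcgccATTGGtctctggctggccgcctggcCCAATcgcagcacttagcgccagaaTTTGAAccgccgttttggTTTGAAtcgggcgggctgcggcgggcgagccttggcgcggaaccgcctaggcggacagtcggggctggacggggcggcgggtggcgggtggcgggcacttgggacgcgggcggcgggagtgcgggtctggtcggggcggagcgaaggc
E2f8: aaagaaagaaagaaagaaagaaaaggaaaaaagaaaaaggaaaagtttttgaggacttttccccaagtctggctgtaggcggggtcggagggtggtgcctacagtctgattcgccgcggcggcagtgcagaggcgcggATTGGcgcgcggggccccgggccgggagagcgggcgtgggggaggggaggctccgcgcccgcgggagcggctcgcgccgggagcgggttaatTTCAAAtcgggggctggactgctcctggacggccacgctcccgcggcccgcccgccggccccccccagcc
Rrm2: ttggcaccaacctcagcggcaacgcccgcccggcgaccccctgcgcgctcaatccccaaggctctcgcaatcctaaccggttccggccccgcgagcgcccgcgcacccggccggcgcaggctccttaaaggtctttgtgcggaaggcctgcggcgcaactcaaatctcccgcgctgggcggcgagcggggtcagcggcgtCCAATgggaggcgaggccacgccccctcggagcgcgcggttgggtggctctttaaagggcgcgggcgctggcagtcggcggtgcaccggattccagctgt

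With fasting, members were called in shares near or below those of all genes, and cyclin D1 had the largest fitted change among them. Fasted against fed in PC, 4 of 33 tested members were higher and 2 lower at an edgeR adjusted p under 0.05, where 11.1% and 10.2% of all tested genes were called in those directions. In PP, 2 were higher and 1 lower, where 8.39% and 9.50% of all genes were called. Averaged over both zones, 6 were higher and 2 lower, where 17.8% and 17.5% of all genes were called. Groups did not overlap, with fasted higher, for 7 members in PC and 7 in PP, and with fasted lower for 5 and 1. All tested genes had such shares of 21.5% and 16.8% higher, and 20.2% and 17.8% lower. Median log2 fold changes of the members were 0.04 in PC and 0.24 in PP, and 0.00 over all tested genes in each. The PC median was below 0 with upper quartile scaling (-0.01) and without fed PC3 (-0.09), fasted PC2 (-0.03) or fasted PC3 (-0.15).

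The PC count of higher members was the least steady. It fell from 4 to 0 without fed PC2 or PC3 or fasted PC2 or PC3, and to 2 without fed PP2 or fasted PP1 or PP2. The count of 2 lower rose to 4 without fasted PC3, in PC and in the average over zones. The PP count of 2 higher fell to 0 without fed PP1 or PP2 or fasted PP2 or PP3, and to 1 without fed PC3, fed PP3, fasted PC2 or fasted PP1.

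**Figure D2:**
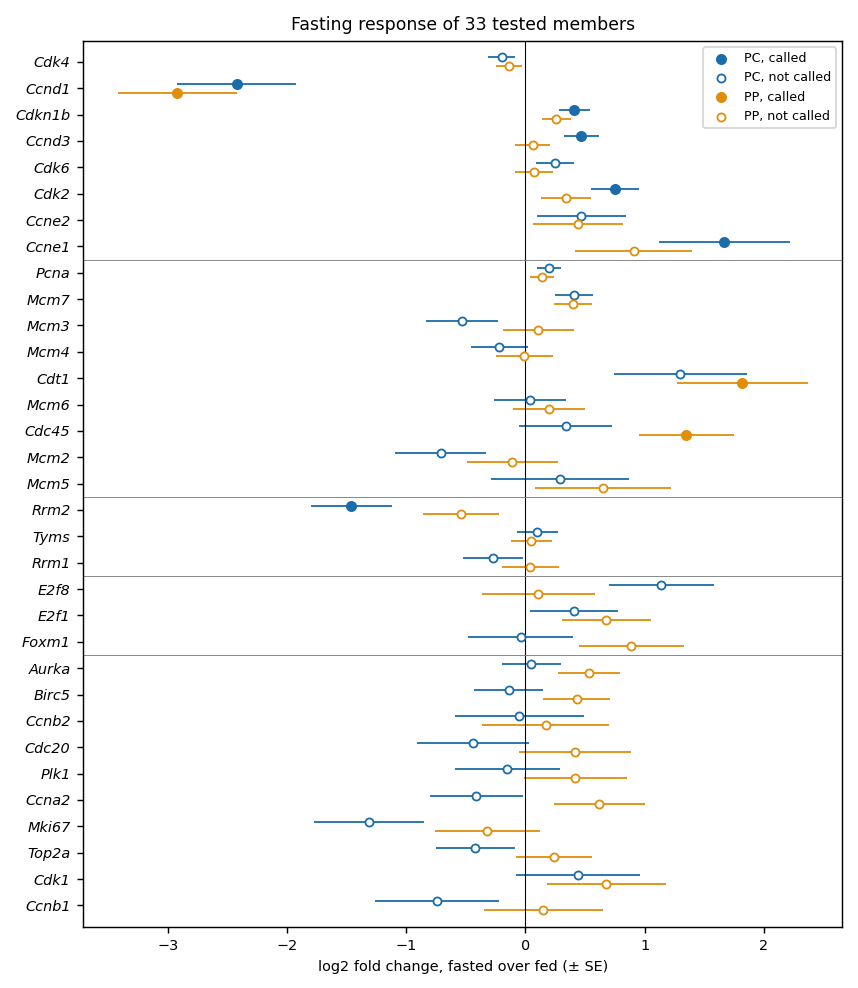
Log2 fold change of fasted against fed, with its SE, for each tested member in PC and in PP, filled where called at an edgeR adjusted p under 0.05. Ccnd1 lies furthest to the left in both zones, and Rrm2 lies further left in PC than in PP.

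Ccnd1 (ENSMUSG00000070348, chr7:144929931-144939925 in GRCm38), the cyclin that couples mitogen signals to CDK4 and CDK6, fell in both zones. It stood at 59.8, 44.8 and 52.7 CPM in fed PC and at 73.2, 95.9 and 57.3 CPM in fed PP libraries. In fasted libraries it was 15.9, 4.45 and 8.92 CPM in PC and 8.48, 16.7 and 4.74 CPM in PP. All 6 fasted libraries lay below all 6 fed libraries. The log2 fold change was -2.42 (SE 0.50, edgeR adjusted p = 0.0075) in PC and -2.92 (SE 0.50, edgeR adjusted p = 0.0038) in PP. Without fasted PC1 the PC value was -2.98 (edgeR adjusted p = 0.0049). Without fasted PP2 the PP value was -3.52 (edgeR adjusted p = 0.003). The call held in both zones under every alternative run. PC and PP did not differ detectably, with -0.53 (SE 0.46, edgeR adjusted p = 0.661) in fed and -0.02 (SE 0.50, edgeR adjusted p = 0.99) in fasted mice. Ccnd1 was 31.9% to 52.3% of the summed CPM of the 8 G1 genes in fed libraries and 3.46% to 15.3% in fasted ones. Its exons overlap those of LTO1 on the opposite strand, and the kit used does not mark strand, so reads of that overlap cannot be told apart. The same limit holds for Ccnd3 (with Bysl), Cdk4 (Tspan31), Ccne2 (Ints8), Cdk2 (Pmel), Ccna2 (Exosc9) and Cdc20 (Elovl1). Cdk6 and E2f8 overlap opposite-strand transcripts that have no deposited counts.

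The other G1 genes did not follow cyclin D1. Its relative Ccnd3, a D-type cyclin, was 26.4, 22.3 and 18.3 CPM in fed PC and 32.4, 28.9 and 31.5 CPM in fasted PC libraries, groups that did not overlap. It rose by 0.47 on the log2 scale in PC (SE 0.15, edgeR adjusted p = 0.045), and in PP the change was 0.06 (SE 0.15, edgeR adjusted p = 0.828). Cdk4, the kinase partner of the D cyclins, was 26.8 to 30.3 CPM in fed PC and 22.4 to 25.8 CPM in fasted PC libraries, which gave -0.20 on the log2 scale (SE 0.11, edgeR adjusted p = 0.217). The Ccnd3 call in PC was lost without fed PC2 or PC3, fed PP3, or any 1 of the 6 fasted libraries (edgeR adjusted p 0.061 to 0.177). It was also lost with upper quartile scaling (edgeR adjusted p = 0.07), no filter on low counts (0.056) and the 2 groups alone (0.053). Without fasted PC1 the value was 0.41 (edgeR adjusted p = 0.112). Averaged over zones its change was 0.26 (SE 0.11, edgeR adjusted p = 0.073). It was called there without fed PC1 (edgeR adjusted p = 0.033) or fed PP1 (edgeR adjusted p = 0.026), and with the replicate block (edgeR adjusted p = 0.03).

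Cdk2, the partner of the E cyclins, rose in PC. It was 6.36, 5.53 and 4.8 CPM in fed PC and 8.03, 9.45 and 10.6 CPM in fasted PC libraries, with no overlap. In PP it was 5.07, 5.21 and 5.46 CPM fed and 4.61, 7.16 and 8.12 CPM fasted, where the groups overlap. The change in PC was 0.75 (SE 0.20, edgeR adjusted p = 0.021), and 0.83 without fasted PC1. Averaged over zones it was 0.54 (SE 0.15, edgeR adjusted p = 0.012), which held under every alternative. The PC call was lost without fed PC2 or PC3 or fasted PC2 or PC3 (edgeR adjusted p 0.057 to 0.089).

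Cdkn1b, whose product p27 binds and inhibits cyclin E with CDK2, rose slightly. It was 19.1, 17.7 and 16.6 CPM in fed PC and 23.5, 24.4 and 23.3 CPM in fasted PC libraries, which did not overlap. In PP it was 22.9, 21.4 and 18.5 CPM fed and 28.5, 21.3 and 25.3 CPM fasted, which did. The change was 0.41 in PC (SE 0.13, edgeR adjusted p = 0.033) and 0.34 averaged over zones (SE 0.09, edgeR adjusted p = 0.011), and the average held under every alternative. The PC call was lost without fed PC2 or PC3, fed PP2 or any 1 of the fasted PC libraries (edgeR adjusted p 0.054 to 0.127), and with upper quartile scaling (0.052) or no filter (0.066). Without fasted PC1 it was 0.40 (edgeR adjusted p = 0.064).

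Ccne1, which encodes cyclin E1, was low and moved with both feeding and zone. It was 0.462, 0.348 and 0.196 CPM in fed PC, 1.58, 0.892 and 1.09 CPM in fed PP, 0.464, 1.62 and 1.22 CPM in fasted PC, and 1.66, 1.45 and 3.6 CPM in fasted PP libraries. The fed PC libraries were the lowest of all, and the highest library was a fasted PP one. Averaged over zones it rose by 1.29 with fasting on the log2 scale (SE 0.37, edgeR adjusted p = 0.016), under every alternative. Averaged over feeding it was lower in PC, at -1.41 (SE 0.37, edgeR adjusted p = 0.024), a call lost without fed PC2 or PC3, fed PP1 or fasted PP3 (edgeR adjusted p 0.057 to 0.066).

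Within single groups cyclin E1 was less certain. In PC its change with fasting was 1.67 (SE 0.55, edgeR adjusted p = 0.048), and 2.02 (edgeR adjusted p = 0.017) without fasted PC1. That call was lost without any 1 of the 6 fed libraries, fasted PC2 or PC3, or fasted PP1 or PP2 (edgeR adjusted p 0.051 to 0.175), and with upper quartile scaling (0.052), a fit that was not robust (0.05) or the replicate block (0.074). Ccne2, which encodes cyclin E2, was 1.13 to 3.99 CPM over all 12 libraries and was called in no comparison.

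Of the 9 tested licensing and fork genes, 3 were called higher with fasting averaged over zones, where 17.8% of all tested genes were. Among these 9, 0 fell with fasting in any comparison by edgeR, by DESeq2 or at an unadjusted p under 0.05. Of all tested genes edgeR called 10.2% lower in PC, 9.50% in PP and 17.5% averaged over zones. At the unadjusted p these shares were 16.5%, 16.3% and 22.2%. DESeq2 called 1426 of 12046, 1321 of 12073 and 2188 of 12075 genes lower in these comparisons. Cdt1, which loads the MCM helicase, was 1.35, 0.244 and 0.931 CPM in fed PC and 0.512, 0.61 and 1.87 CPM in fed PP libraries. It was 2.11, 2.11 and 2 CPM in fasted PC and 4.41, 2.64 and 3.42 CPM in fasted PP libraries. Every fasted library lay above every fed library. The log2 fold change was 1.56 averaged over zones (SE 0.39, edgeR adjusted p = 0.0081), under every alternative. It was 1.82 in PP (SE 0.55, edgeR adjusted p = 0.038) and 1.30 in PC (SE 0.56, edgeR adjusted p = 0.118), with 1.27 in PC (edgeR adjusted p = 0.183) without fasted PC1. Without fed PP3 the PP value was 2.63 (edgeR adjusted p = 0.012). The PP call was lost without fed PC3, fed PP1 or PP2, fasted PC2 or any 1 of the fasted PP libraries (edgeR adjusted p 0.051 to 0.13).

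Mcm7, a subunit of the replicative helicase, was 9.43 to 10.8 CPM in fed PC, 10.7 to 11.6 CPM in fed PP, 10.2 to 16.2 CPM in fasted PC and 14.1 to 15.9 CPM in fasted PP libraries. Only the PP groups were apart. Its average change was 0.41 (SE 0.11, edgeR adjusted p = 0.013), under every alternative. Without fasted PC1 it was also called within PC, at 0.56 (edgeR adjusted p = 0.01), and within PP, at 0.41 (edgeR adjusted p = 0.029). The overlapping genes Ap4m1 and Cops6 lie on the opposite strand. The other 5 MCM subunits were called in no comparison: Mcm2, Mcm3, Mcm4 and Mcm6 had group means of 1.55 to 3.01 CPM and Mcm5 of 0.664 to 1.06 CPM. Without fasted PC3, Mcm2 was called lower in fasted PC, at -1.33 (edgeR adjusted p = 0.025), and in the average over zones, at -0.72 (edgeR adjusted p = 0.031).

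Cdc45, a helicase cofactor, was 0.81, 0.751 and 0.572 CPM in fed PP and 1.5, 2.07 and 1.91 CPM in fasted PP libraries, which did not overlap. In PC it was 0.974 to 1.56 CPM fed and 0.773 to 2.38 CPM fasted, which did. The change in PP was 1.35 (SE 0.40, edgeR adjusted p = 0.035) and the average 0.85 (SE 0.28, edgeR adjusted p = 0.032), which was 1.01 (edgeR adjusted p = 0.005) without fasted PC1. Both calls were lost with the replicate block (edgeR adjusted p = 0.053 and 0.055). The PP call was lost without any 1 of the fed PP libraries or without fasted PP2 or PP3 (edgeR adjusted p 0.06 to 0.108). The average was lost without fed PC2 or PC3, fed PP2 or PP3, fasted PC2 or PC3, or fasted PP2 or PP3 (edgeR adjusted p 0.056 to 0.089). Reads of Ufd1 on the opposite strand cannot be told apart where the genes overlap.

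Pcna, the most abundant member per kb, moved little. It was 34.8 to 39.7 CPM in fed PC, 36.8 to 45 CPM in fed PP, 40.2 to 43.9 CPM in fasted PC and 44.4 to 48.7 CPM in fasted PP libraries. With fasting the changes were 0.20 in PC (SE 0.10, edgeR adjusted p = 0.186) and 0.14 in PP (SE 0.10, edgeR adjusted p = 0.363).

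**Figure D3:**
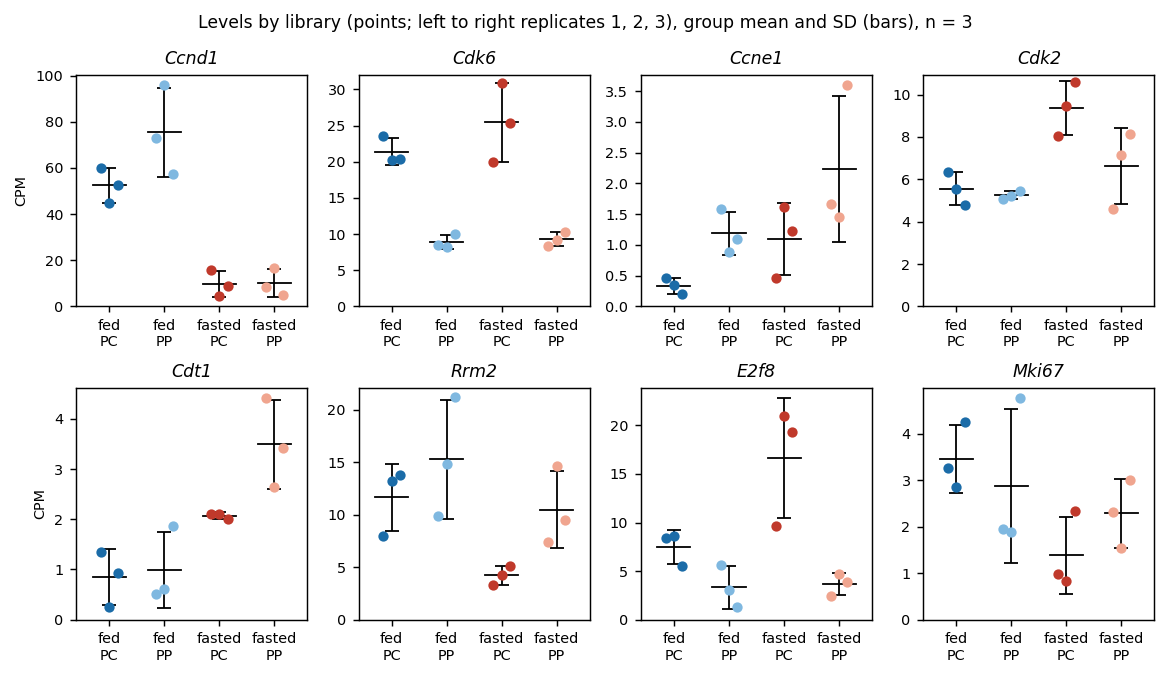
CPM of 7 called members and Mki67, one point per library in each of the 4 groups, with the group mean and SD as bars (n = 3) and axes starting at 0. Ccnd1 falls to 16.7 CPM or less in all 6 fasted libraries, and Cdk6 separates PC from PP in both feeding states.

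Ribonucleotide reductase makes the deoxynucleotides for DNA synthesis, and the transcript of its cycle-dependent small subunit Rrm2 (ENSMUSG00000020649, chr12:24708241-24714146) fell in fasted PC. It was 7.99, 13.2 and 13.8 CPM in fed PC and 3.3, 4.27 and 5.1 CPM in fasted PC libraries, and 9.85, 14.8 and 21.2 CPM in fed PP and 7.37, 14.6 and 9.53 CPM in fasted PP libraries. The 3 fasted PC libraries were the lowest of the 12, and the other groups overlap. The change with fasting in PC was -1.46 (SE 0.34, edgeR adjusted p = 0.0099), and -1.33 (edgeR adjusted p = 0.038) without fasted PC1. In PP it was -0.54 (SE 0.32, edgeR adjusted p = 0.281), and the difference between the zones was not called, at -0.93 (SE 0.46, edgeR adjusted p = 0.997). The PC call and the average over zones of -1.0 (SE 0.23, edgeR adjusted p = 0.0058) held under every alternative.

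The other two genes of nucleotide supply were called in no comparison. Rrm1, the large subunit, had group means of 6.5 to 8.97 CPM, and Tyms, thymidylate synthase, of 5.08 to 6.19 CPM. Their changes with fasting were -0.27 (SE 0.25) and 0.10 (SE 0.17) in PC, and 0.04 (SE 0.24) and 0.05 (SE 0.17) in PP.

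By zone, members were called in shares near those of all genes, and Cdk6 had the smallest adjusted p among them in each zone comparison. PC against PP, 1 of 33 tested members was higher and 0 lower in fed mice by edgeR, where 2.24% and 2.47% of all genes were called. At an unadjusted p under 0.05, 2 were higher and 2 lower in fed mice, where 7.98% and 8.72% of all tested genes were. DESeq2 called 1 member higher and 1 lower in fed mice, where it called 449 and 457 of 12073 genes. In fasted mice 2 were higher and 1 lower, where 3.35% and 3.05% of all genes were called. Averaged over feeding 2 were higher and 2 lower, where 6.47% and 6.50% were called. Groups did not overlap for 2 members higher and 1 lower in fed mice (12.9% and 13.1% of all genes), and for 2 higher and 4 lower in fasted mice (11.4% and 10.6%). In fasted mice 7 of 33 members had a higher fitted level in PC and the rest a lower one, with a median log2 fold change of -0.33, against -0.00 over all genes. Without fasted PC1 that median was -0.12. Summed cholangiocyte markers also differed by zone, at 13.7 to 28.1 CPM in PC and 34.2 to 47.9 CPM in PP libraries. The markers did not all do so. Krt7 overlapped, at 8.6 to 16.1 CPM in PC and 14.6 to 19.7 CPM in PP. Spp1 (3.5 to 10.3 against 10.5 to 17.2 CPM) and Sox9 (1.38 to 2.92 against 4.7 to 12.7 CPM) did not overlap. Epcam was 0.426 CPM in fed PC1, 0.209 in fed PC2, 0.547 in fasted PP3 and 0 elsewhere. The rest were under 1 CPM in every library. The part of these markers in the zone values was not tested.

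**Figure D4:**
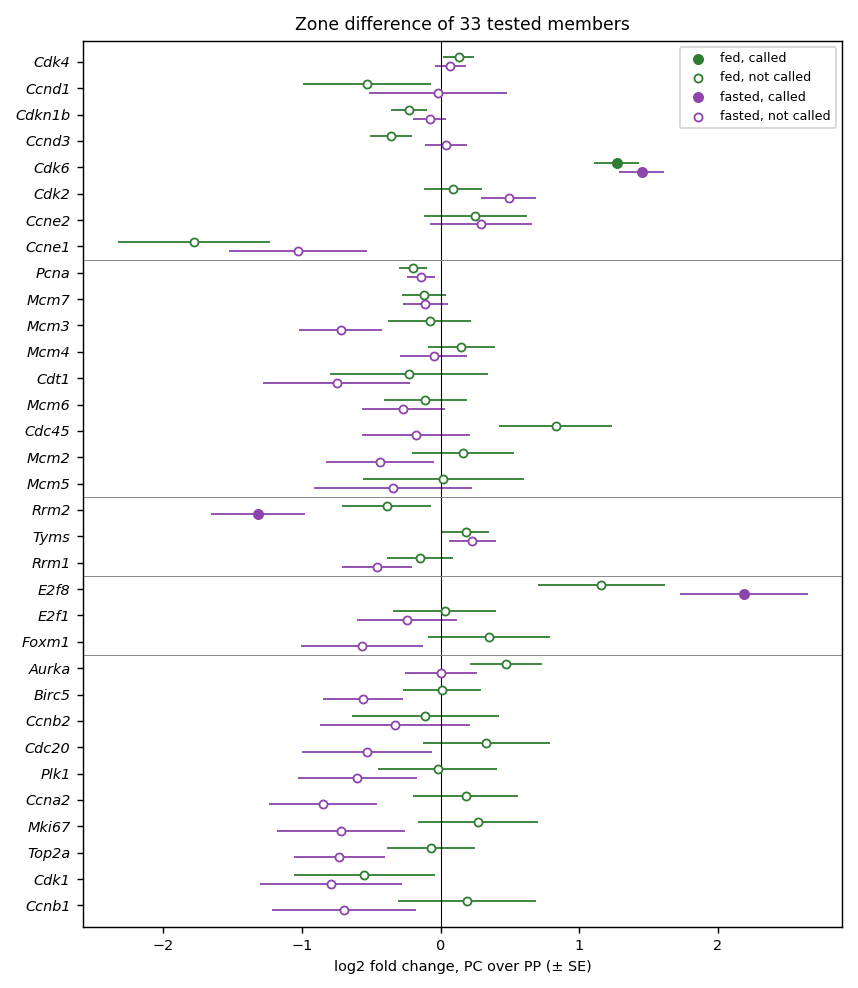
Log2 fold change of PC against PP, with its SE, for each tested member in fed and in fasted mice, filled where called at an edgeR adjusted p under 0.05. Cdk6 lies on the PC side in both states, E2f8 lies further to the PC side in fasted mice, and the mitosis genes, none of them called, lie mostly on the PP side in fasted mice.

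Cdk6 (ENSMUSG00000040274, chr5:3341485-3531008), a kinase partner of D-type cyclins, was higher in PC in both feeding states. It was 23.5, 20.3 and 20.4 CPM in fed PC and 8.44, 8.21 and 10 CPM in fed PP libraries. In fasted mice it was 20, 30.9 and 25.4 CPM in PC and 8.38, 9.18 and 10.3 CPM in PP libraries. All 6 PC libraries lay above all 6 PP libraries. The log2 difference was 1.27 fed (SE 0.16, edgeR adjusted p = 8.0e-04) and 1.45 fasted (SE 0.16, edgeR adjusted p = 4.3e-04), and both calls held under every alternative. Without fasted PC1 the fasted value was 1.59 (edgeR adjusted p = 7.3e-05). Fasting did not change it detectably, with 0.25 in PC (SE 0.16, edgeR adjusted p = 0.291) and 0.07 in PP (SE 0.16, edgeR adjusted p = 0.826). The paralog Cdk4 was not called by zone, with a log2 difference of 0.10 averaged over feeding (SE 0.08, edgeR adjusted p = 0.469).

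E2f8 (ENSMUSG00000046179, chr7:48866429-48881596), an atypical E2F that represses transcription and is known for its part in hepatocyte polyploidy, was higher in PC. It was 8.42, 8.63 and 5.49 CPM in fed PC and 5.67, 3.05 and 1.3 CPM in fed PP libraries. Fasted it was 9.63, 21 and 19.3 CPM in PC and 2.41, 4.66 and 3.83 CPM in PP libraries. The fasted groups were apart and the fed groups overlapped. Averaged over feeding the log2 difference was 1.67 (SE 0.33, edgeR adjusted p = 0.0057), under every alternative. In fasted mice it was 2.19 (SE 0.46, edgeR adjusted p = 0.018) and in fed mice 1.16 (SE 0.46, edgeR adjusted p = 0.221). A block for each replicate number within a feeding state, added after the data were seen, gave a call in fed mice, at 1.30 (edgeR adjusted p = 0.017). Without fasted PC1 the fasted difference was 2.46 (edgeR adjusted p = 0.0081). It was lost without fasted PC2 or PC3 or fasted PP1 or PP3 (edgeR adjusted p 0.059 to 0.071).

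With fasting E2f8 changed by 1.14 in PC (SE 0.44, edgeR adjusted p = 0.09) though the PC groups did not overlap, and without fasted PC1 the value was 1.40 (edgeR adjusted p = 0.046). Without fed PP1 or PP3, libraries outside that comparison, the edgeR adjusted p was 0.049 and 0.041. DESeq2 (adjusted p = 0.037) and the fit of the 2 groups alone (edgeR adjusted p = 0.041) also called it. In PP the change was 0.11 (SE 0.47, edgeR adjusted p = 0.903), and the difference between zones, 1.03 (SE 0.64, edgeR adjusted p = 0.997), was not called. E2f8 made up 41.7% to 89.7% of the summed CPM of the 3 transcription factors. E2f1, an activating E2F, had group means of 1.33 to 2.13 CPM and Foxm1, an activator of mitosis genes, of 0.372 to 0.695 CPM, and neither was called. Averaged over zones with fasting, E2f8 was called without fed PP1, at 0.93 (edgeR adjusted p = 0.031), and E2f1 without fasted PP2, at 0.69 (edgeR adjusted p = 0.038).

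Rrm2 was lower in PC in some zone comparisons. Rrm2 in fasted mice differed by -1.32 (SE 0.34, edgeR adjusted p = 0.041) and Rrm2 averaged over feeding by -0.85 (SE 0.23, edgeR adjusted p = 0.031). The fasted call was lost without fed PC2 or PC3, fed PP2, any 1 of the fasted PC libraries, or fasted PP2 or PP3 (edgeR adjusted p 0.054 to 0.133), and with no filter (0.061). The average was lost without fed PC1 or PC2, fed PP2 or PP3, fasted PC1 or PC2, or fasted PP2 or PP3 (edgeR adjusted p 0.053 to 0.075). Without fasted PC1 these values were -1.17 (edgeR adjusted p = 0.108) and -0.77 (edgeR adjusted p = 0.073). Ccne1 in fed mice differed by -1.78 (SE 0.55, edgeR adjusted p = 0.09), with groups that did not overlap, and without fasted PC1 its edgeR adjusted p was 0.049. DESeq2 (adjusted p = 0.04) and the 2 groups alone (edgeR adjusted p = 0.045) called it too.

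Genes of mitosis were low in every group, and none of the 10 tested was called in any of the 7 comparisons by edgeR. At an unadjusted p under 0.05, 2 were lower in PC in fasted mice and 1 was lower with fasting in PC, where 9.64% and 16.5% of all tested genes were. DESeq2 called 1 gene, Mki67, lower with fasting in PC and averaged over zones. Of all genes it called 1426 of 12046 lower in PC and 2188 of 12075 lower averaged over zones. Mki67, whose protein marks cycling cells, was 3.27, 2.85 and 4.26 CPM in fed PC and 0.979, 0.843 and 2.33 CPM in fasted PC libraries. In PP it was 1.96, 1.88 and 4.78 CPM fed and 2.31, 1.54 and 3.01 CPM fasted. The PC groups were apart and the PP groups overlapped. The change in PC was -1.31 (SE 0.46, edgeR adjusted p = 0.059), by DESeq2 with adjusted p = 0.027. The 2 groups alone gave an edgeR adjusted p of 0.049 and the replicate block 0.0047. The edgeR adjusted p was 0.149 without fasted PC1, 0.032 without fed PP3 and 0.019 without fasted PC3, where the value was -1.93. Averaged over zones the change was -0.82 (SE 0.32, edgeR adjusted p = 0.062). Its edgeR adjusted p was 0.048 without fed PP1, 0.048 without fed PP2, 0.015 without fasted PC3 and 0.0061 with the replicate block.

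With fasting, 9 of 10 had a higher fitted level in PP, with a median log2 fold change of 0.42, and 2 of 10 in PC, with a median of -0.28. In fasted mice 0 of 10 had a higher fitted level in PC than in PP, with Aurka at -0.00 and a median of -0.65. Without fasted PC1 these medians were 0.43, -0.03 and -0.37, and without fasted PC3 they were 0.43, -0.86 and -1.10. Without fasted PC1, 5 of 10 had a higher fitted level with fasting in PC. No difference between zones was called for any of them, so the directions are descriptions of the libraries.

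The summed level of the 12 mitosis genes was 15.3 to 16.4 CPM in fed PC, 13.2 to 17.3 CPM in fed PP and 16.3 to 20.6 CPM in fasted PP libraries. In fasted PC it spread from 8.34 CPM in PC1 over 11.1 to 18.1 CPM in PC3, a range wider than in the other 3 groups. Sums of several marker lists had the same order in fasted PC: the 11 macrophage markers summed to 0.927, 3.67 and 6.32 CPM, the 8 B and plasma cell markers to 0.721, 2.47 and 4.32 CPM, the endothelial markers to 9.48, 10.8 and 16.2 CPM, and the cholangiocyte markers to 13.7, 16.5 and 25.3 CPM. In PC1 the macrophage genes Adgre1, Marco, Vsig4, C1qb, C1qc and Timd4 were at 0, and in PC3 none of the 11 was. The 11 T and NK cell markers, at 2.78, 1.69 and 3.99 CPM, did not have that order. Nor did the stellate and fibroblast markers, at 3.3, 3.61 and 3.16 CPM. The erythroid markers, at 13, 446 and 22.3 CPM, did not have it either. In fed PP and in fasted PP none of the macrophage, B cell, endothelial and cholangiocyte sums had the order of the mitosis sum. Fed PP macrophage sums were 11.5, 2.39 and 3.12 CPM, with mitosis sums of 13.2, 13.9 and 17.3 CPM. Fasted PP endothelial sums were 11.2, 37.4 and 6.84 CPM, with mitosis sums of 18, 16.3 and 20.6 CPM. In fed PC only the endothelial sums of those lists had that order. Fasted PC3 had the highest B cell and T cell sums of the 12 libraries. Over all groups the macrophage sums ran from 0.927 to 11.5 CPM, the B cell sums from 0.652 to 4.32 CPM and the T and NK sums from 0.895 to 3.99 CPM. The 10 neutrophil markers summed to 15.1, 24.7 and 37 CPM in fasted PP and to at most 8.01 CPM in every other library. Most of that was Lcn2, at 15.1, 24.3 and 23.4 CPM, and Ly6g was at 0 in all 12. In fasted PP3, the library with the highest mitosis sum (20.6 CPM), Mpo was 3.15, Ngp 3.1, S100a8 2.23, S100a9 2.19, Elane 1.09 and Camp 0.821 CPM, and each of these was at most 0.499 CPM in the other 11 libraries. Without fasted PP3 the median change of the mitosis genes with fasting in PP was 0.36, and their median zone difference in fasted mice was -0.52. The part of these cells in the mitosis values was not tested.

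**Figure D5:**
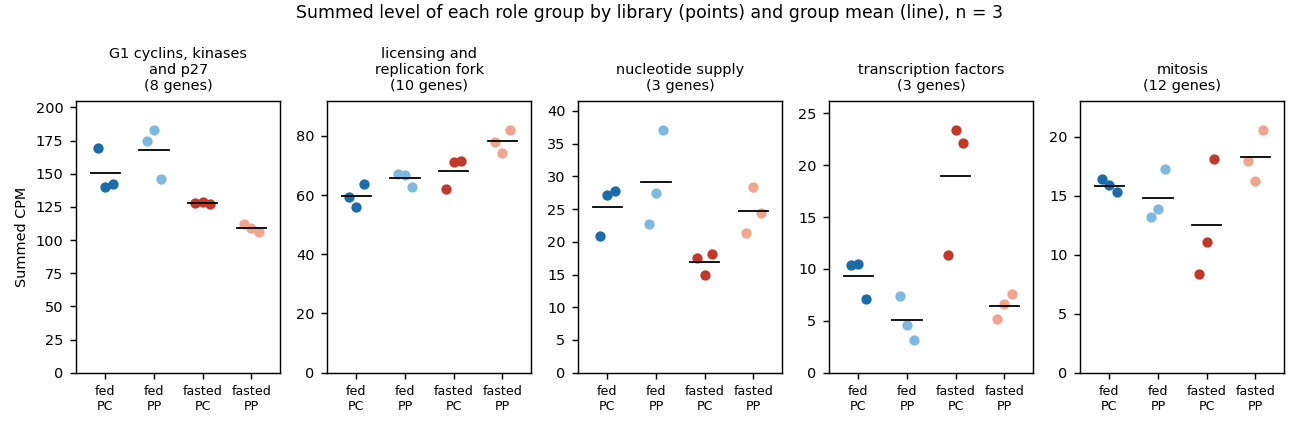
Summed CPM of the members of each role, one point per library, with the mean of each group as a line and axes starting at 0. The G1 sum is 140 CPM or more in fed and 129 CPM or less in fasted libraries, the factor sum is highest in fasted PC2 and PC3, and the mitosis sum spreads widest in fasted PC.

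Cdc6, which failed the filter, showed a difference by zone in a handful of counts. It had 1 to 5 counts in PC libraries and 5 to 14 counts in PP libraries, or 0.0348 to 0.178 CPM against 0.251 to 0.615 CPM. Every PP library lay above every PC library in CPM. All 3 fasted PC libraries were under the floor of 3 counts, so no fold is given. With no filter on low counts the difference averaged over feeding had an edgeR adjusted p of 0.032, and DESeq2 gave 0.024, while within fed mice these were 0.505 and 0.429 and within fasted mice 0.125 and 0.115. Aurkb and Bub1 were called in none of these fits.

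No member responded to fasting differently in PC and PP by the test of that difference. edgeR called 0 of 33 members and 0 of all 12086 genes, and at an unadjusted p under 0.05 there were 0 members, with 263 genes higher and 202 lower. DESeq2 called 0 members, and of 12075 genes 5 higher and 6 lower. The members' fitted differences had a median of -0.26, against 0.02 over all genes. A missed threshold with 3 libraries per group does not show that the zones responded alike.

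Around the members, a list of 133 other cell cycle genes was read in the same fits, and 119 of them were tested. With fasting 13 were higher and 10 lower in PC, and 13 were higher and 8 lower in PP, where 11.1% and 10.2%, and 8.39% and 9.50%, of all tested genes were called. By zone 1 was higher and 0 lower in fed mice by edgeR, and 1 was higher and 1 lower in fasted mice. In fed mice 6 were higher and 6 lower at an unadjusted p under 0.05, and 2 higher and 3 lower by DESeq2. All tested genes had edgeR shares of 2.24% and 2.47% in fed and 3.35% and 3.05% in fasted mice. In fed mice 7.98% were higher and 8.72% lower at the unadjusted p, and DESeq2 called 449 and 457 of 12073 genes. None differed between zones in its response by edgeR or DESeq2. At an unadjusted p under 0.05, 2 were higher and 7 lower, where 2.18% and 1.67% of all tested genes were.

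Of the 15 tested E2F, DP, pocket and MuvB/MYB proteins, 3 rose and 3 fell in PC, and 3 rose and 2 fell in PP. Of all tested genes 11.1% were called higher and 10.2% lower in PC, and 8.39% and 9.50% in PP. E2f2, an activating E2F, fell from 3.86 ± 1.01 to 0.353 ± 0.166 CPM in PC and from 3.07 ± 0.883 to 0.536 ± 0.217 CPM in PP (SD, n = 3). Its log2 fold changes were -3.43 (SE 0.43, edgeR adjusted p = 2.8e-04) and -2.50 (SE 0.40, edgeR adjusted p = 0.0014). Tfdp2, a dimerization partner of E2Fs, rose by 1.23 and 1.15 on the log2 scale (SE 0.26 in each, edgeR adjusted p = 0.0055 and 0.0094). The pocket protein gene Rbl1 changed by -1.68 in PC (SE 0.47, edgeR adjusted p = 0.022), and its relative Rbl2, which binds repressor E2Fs in quiescent cells, by 1.13 in PC (SE 0.14, edgeR adjusted p = 3.1e-04) and 1.07 in PP (SE 0.14, edgeR adjusted p = 5.4e-04). Rbl2 was named after its values were seen, and it is not given without fasted PC1. The Rbl1 call was lost without fed PC1 or PC2 or fasted PC2 or PC3 (edgeR adjusted p 0.051 to 0.072). Without fasted PC1 the PC values were -3.59 for E2f2, 1.15 for Tfdp2 and -2.23 for Rbl1, and each kept its call.

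Among 25 tested other cyclins, CDKs, CDK inhibitors and phosphatases, 4 were higher and 1 lower in PC, and 5 higher and 1 lower in PP. The shares of all tested genes were again 11.1% and 10.2% in PC, and 8.39% and 9.50% in PP. Cdkn1a, which encodes the CDK inhibitor p21, was 0.604 to 2.18 CPM in the 6 fed libraries. In fasted libraries it was 3.24, 5.66 and 24 CPM in PC and 14.2, 20.1 and 14.3 CPM in PP. Ccng2, a cyclin linked to growth arrest, rose by 2.20 in PC (SE 0.20, edgeR adjusted p = 3.6e-05) and 1.95 in PP (SE 0.20, edgeR adjusted p = 9.7e-05). The change of Cdkn1a was 3.98 in PC (SE 0.74, edgeR adjusted p = 0.0043) and 3.61 in PP (SE 0.70, edgeR adjusted p = 0.0063). Without fasted PC3, its highest PC library, the PC value was 2.66 (edgeR adjusted p = 0.0015). Without fasted PC1 it was 4.40, and that of Ccng2 2.41, both called. Skp2, the F-box protein that targets p27, fell in PP by 1.66 on the log2 scale (SE 0.48, edgeR adjusted p = 0.029), a call lost without fed PP2 or PP3 or fasted PP1 or PP3 (edgeR adjusted p 0.067 to 0.103).

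Of 37 tested origin, helicase, polymerase and fork genes, 4 rose and 1 fell in PC, and 2 rose and 2 fell in PP. For this and the lists that follow, 11.1% of all tested genes were called higher and 10.2% lower in PC. In PP these shares were 8.39% and 9.50%. Fen1, the flap endonuclease of Okazaki fragments, changed by -1.05 in PC (SE 0.23, edgeR adjusted p = 0.0066), and by -1.11 (edgeR adjusted p = 0.013) without fasted PC1. Its exons overlap Tmem258 on the opposite strand. Of 8 tested nucleotide enzymes, 1 rose and 3 fell in PC, and 2 rose and 2 fell in PP. Of 34 tested spindle, checkpoint and cytokinesis genes, 1 rose and 2 fell in PC, and 1 rose and 1 fell in PP. By zone averaged over feeding, Wee1, a kinase that restrains CDK1, was higher in PC by 0.56 (SE 0.14, edgeR adjusted p = 0.021). The DNA polymerase alpha catalytic subunit Pola1 was lower by 0.84 on that scale, at 2.8 ± 0.165 CPM in fed PC against 5 ± 0.851 CPM in fed PP (SD, n = 3) and 2.41 ± 0.997 against 4.33 ± 0.428 CPM fasted. Its edgeR adjusted p was 0.0094. Without fasted PC1 the Pola1 value was -1.02 and the Wee1 value 0.48, both called. The Wee1 call was lost without fed PP2 or PP3, fasted PC2 or fasted PP1 or PP3 (edgeR adjusted p 0.051 to 0.055).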

How the data were processed

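Total RNA of 12 hepatocyte libraries was analysed, made with NEBNext Ultra kits per the labels. The authors deposited estimated counts per gene, made with kallisto 0.46.0 against mm10 per the submitters' processing notes; how transcripts were summed to genes was not given in the sources used here. Reads shared by genes and their pseudogenes (Ccnd3, Pcna, Tyms, Ccnb1 and Ccnb2 have some by name) were divided by a model, so those values are uncertain. Values were rounded, moving a library total by at most 120.8 counts. Of 28030 identifiers 27645 matched GENCODE M21 (GRCm38), the source of symbols, positions and exon lengths. No row was a summary row.

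Genes were kept by filterByExpr, which left 12086. edgeR 4.0.16 in R 4.3.3 (TMM, robust quasi-likelihood) fitted 4 group means to all 12 libraries. The fit left 8 residual degrees of freedom, and its common coefficient of biological variation was 0.2055. Adjusted p is Benjamini-Hochberg over all tested genes and a call is under 0.05. SE was taken from the unshrunk log2 fold change over the root of F. The 7 comparisons share libraries. The script was tested on simulated data. DESeq2 1.42.0 was an alternative, as were other scalings and filters, replicate blocks, fits of 2 groups, and leaving out each library.

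Members named were those called in any comparison, those of 1 CPM or more with non-overlapping groups and a log2 change of 1 or more, and the highest per kb in each role; of related genes, up to 3 called per direction and comparison. Of the related genes so chosen, Orc5, Pold2, Rfc1, Rpa1, Mcm10 and Cenpa are given no values here. Each had a call that was lost under some alternatives, as Pold2 by zone in fasted mice under 12 of 21. The members, lists and tests were chosen with earlier results of these data known.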

Additional observations from a re-analysis of the deposited data

How the results depend on the processing

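The alternatives were followed for 61 pairs of a gene and a comparison. These were calls of named genes, or members of 1 CPM or more with non-overlapping groups and a log2 change of 1 or more. Pairs chosen so from these same libraries are unlikely to reverse, and 0 changed direction under the alternatives run. The members' median with fasting in PC did, as given above, and their median by zone in fed mice, 0.02, was -0.00 without fed PC1. Over those pairs 1025 alternative values kept their side of the threshold, 170 lost it and 13 gained it. Counts of members called moved by over 1.5 times in these cases. In fed mice by zone, lower members went from 0 to 1 with DESeq2 and with the 2 groups alone, and higher members from 1 to 2 with the replicate block within each feeding state. In fasted mice by zone, 1 lower became 0 with no filter on low counts. With fasting in PC, 4 higher became 1 with upper quartile scaling and 2 with no filter. With fasting in PP, 2 higher became 1 with the replicate block. Members under the detection limit went from 9 to 3 at 0.5 CPM.

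Counts of related genes by zone in fed mice went from 1 to 2 higher with DESeq2 size factors and with DESeq2, and from 0 to 3 lower with DESeq2, 1 with the replicate block and 2 with the 2 groups alone. With the block within each feeding state they were 2 higher and 1 lower. In fasted mice 1 higher became 0 with upper quartile scaling, no filter, the block and the 2 groups alone, and 2 with DESeq2, and 1 lower became 0 with a mean of at least 1 CPM, the block and the 2 groups alone, and 2 with DESeq2. The cause was not tested.

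Leaving out 1 library gave, for higher and lower members, 1 to 1 and 0 to 1 (zone, fed), 1 to 2 and 0 to 1 (zone, fasted), 0 to 4 and 2 to 4 (fasting, PC), 0 to 3 and 1 to 1 (fasting, PP), 5 to 8 and 2 to 4 (fasting, averaged), 2 to 2 and 1 to 3 (zone, averaged), and 0 to 0 for the interaction. For related genes these were 0 to 2 and 0 to 2, 0 to 3 and 0 to 2, 8 to 14 and 5 to 12, 6 to 13 and 3 to 9, 17 to 22 and 13 to 18, 0 to 4 and 1 to 5, and 0 to 0.

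Of 18 pairs of same-numbered libraries 3 correlated above 0.1 (r from -0.115 to 0.269), all 3 among the 6 that join the zones within a feeding state. The 12 differently numbered pairs of that kind had r from -0.27 to 0.217. Not every pair was over 0.1. The numbers were therefore not used as pairs, though these correlations cannot show whether same-numbered libraries came from 1 mouse. Among members the replicate block, by number over both feeding states, ended the call of Cdc45 with fasting in PP (edgeR adjusted p = 0.053). It also ended those of Cdc45 averaged over zones (edgeR adjusted p = 0.055) and of Ccne1 in PC (edgeR adjusted p = 0.074). Mki67 gained a call in PC (edgeR adjusted p = 0.0047) and averaged over zones (edgeR adjusted p = 0.0061). Ccnd3 gained one averaged over zones (edgeR adjusted p = 0.03). The block within each feeding state, chosen after seeing the data and run on the zone comparisons, ended no zone call of the named genes and added those of E2f8 and related genes in fed mice counted above. By zone in fasted mice that block moved the edgeR adjusted p of Rrm2 from 0.041 to 0.0044 and of E2f8 from 0.018 to 0.0011. For Cdk6 it went from 4.3e-04 to 7.1e-04. Depth limits the 9 members under 1 CPM most.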

Other observations

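Fitted values of the related genes outside the comparisons above included 1 large change at very low counts. Incenp, which encodes a partner of Aurora B, was 0.678 ± 0.0672 CPM in fed PC and 0.0515 ± 0.0892 CPM in fasted PC libraries (SD, n = 3), the latter under the floor of 3 counts, and 0.576 ± 0.213 CPM in fasted PP libraries. edgeR called it lower in fasted PC against fed PC (edgeR adjusted p = 0.0083) and against fasted PP (edgeR adjusted p = 0.032). Incenp was chosen after its values were seen, and it is not given without fasted PC1.

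Of the related genes called with fasting in both zones, 5 more are given here. Tk1, thymidine kinase of the salvage pathway, rose by 0.93 in PC (SE 0.22, edgeR adjusted p = 0.0097) and 0.79 in PP (SE 0.22, edgeR adjusted p = 0.025) on the log2 scale. Gmnn, whose product geminin inhibits CDT1, rose by 0.87 (SE 0.19, edgeR adjusted p = 0.0067) and 0.73 (SE 0.19, edgeR adjusted p = 0.02), and Smc4, a condensin subunit, by 0.80 and 0.78 (SE 0.20 in each, edgeR adjusted p = 0.015 and 0.019). Ctps, CTP synthase, fell by 1.04 in PC (SE 0.23, edgeR adjusted p = 0.0076) and by 0.75 in PP (SE 0.23, edgeR adjusted p = 0.04). Bub3, a spindle checkpoint gene, fell by 0.36 (SE 0.11, edgeR adjusted p = 0.029) and 0.64 (SE 0.11, edgeR adjusted p = 0.0016). These 5 genes were chosen after their values were seen, and alternatives were not run on them singly.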
